A study of Rattus norvegicus with 24 samples.

Results

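Iraqi sand breathed without cigarette smoke was set against clean air in the lungs of 8 rats, 4 that inhaled Iraqi sand and 4 that inhaled air, out of 24 rats in the series. The 8 arrays were taken by their sample titles, and every probe set with exactly 1 gene symbol entered, the brightest probe set standing for its gene, which gave 14217 genes. The study crossed nose-only air or cigarette smoke with whole-body air, Iraqi sand or silica, and its title asks about the combined effects of smoke and inhaled sand. Iraqi sand rats (301, 302, 304 and 305) received air nose-only and Iraqi sand at 1 mg per cubic metre in a chamber, 18 hours daily, 7 days a week, in the final 2 weeks. Air rats (102, 103, 104 and 105) received air by both routes. Other groups serve for contrast below, the smoke and Iraqi sand rats, which also had smoke holding 0.48 mg of wet particulate per litre (3 hours daily, 5 days a week), and the smoke rats, which had the smoke alone. The 4 silica rats received air nose-only and silica in the chamber, also at 1 mg per cubic metre, 18 hours daily, 7 days a week, for 2 weeks. All were male CD Sprague-Dawley rats, 17 weeks old by the sample labels and younger by the design text, which names 17 rats per group, and no transgene or deletion is involved. Nose-only exposure ran 5 weeks by the protocol, or 6 by the design text, which also gives the chamber hours as up to 19 daily. RNA came from the right caudal lobe, a piece of tissue in which all lung cell types are mixed, so that fewer cells of a type and less RNA per cell cannot be told apart.

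Mineral dust that reaches the alveoli is engulfed by alveolar macrophages, which carry it in lysosomes and call in other leukocytes through chemokines. Alveolar type 2 cells make surfactant, the lipid and protein film of the alveoli, and take part of it back, so lipid synthesis and lysosomal enzymes are prominent in both cell types. Oxidants formed at particle surfaces release the transcription factor NRF2, which turns on antioxidant enzymes, while the Krüppel-like factors Klf2 and Klf4 are kept on in endothelium by blood flow and are also immediate early genes.

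Values are log2 intensities, the number of arrays limits their precision, and rats are given in the order 301, 302, 304, 305 for Iraqi sand and 102, 103, 104, 105 for air. Array medians lay between 7.26 and 7.32. RNA integrity numbers were 8.1, 8.8, 9.3 and 9.2 in Iraqi sand rats, against 9.4, 9.4 and 9.3 in air rats, with none given for rat 104, so no sand rat was above the lowest known air value. The lung label held, with the surfactant protein gene Sftpc between 14.88 and 14.90 in Iraqi sand rats and between 14.79 and 14.87 in air rats, and the club cell gene Scgb1a1 between 14.89 and 14.95 in Iraqi sand rats and between 14.90 and 14.97 in air rats. Rats 302 and 104 stood apart. The atrial myosin light chain Myl7 was at 11.51 in rat 302, against 4.56 to 5.68 in the other Iraqi sand rats, and at 12.04 in rat 104, against 5.68 to 7.58 in the other air rats. In each of these 2 rats 22 of 30 markers of heart and striated muscle stood 2-fold or more above the mean of the group mates, while the atrial peptide gene Nppa stayed between 6.28 and 6.95 in the Iraqi sand rats and between 6.32 and 6.53 in the air rats. The secreted airway protein gene Bpifa1 was also high in both, at 12.63 in rat 302 and 11.77 in rat 104, against at most 7.05 elsewhere in the 2 groups. The array of rat 302 correlated with the others at 0.944 on average, and 1211 genes were 2-fold or more below its mates' mean in it. Counts, list medians and the genes that passed are therefore given with all 24 arrays and with the 22 arrays left without these 2 rats. Other differences are from 24 arrays, and the value from 22 is added where it differs by over 1.5 times.

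**Figure D1:**
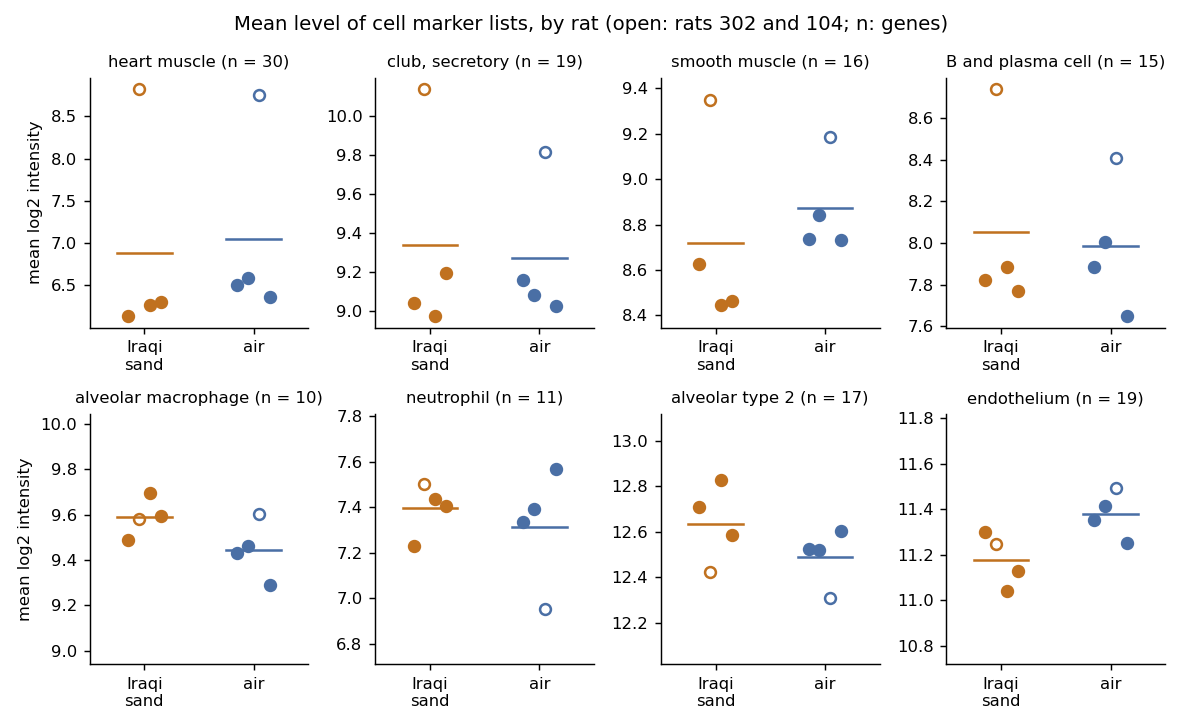
Mean log2 intensity of 8 cell marker lists in each of 4 Iraqi sand and 4 air rats, with open points for rats 302 and 104, lines for the mean of 4 rats and the number of genes in brackets. The heart muscle list stands at 8.82 in rat 302 and at 8.75 in rat 104, above 6.14 to 6.31 in the other Iraqi sand rats and 6.36 to 6.58 in the other air rats.

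Few genes passed the test under Iraqi sand alone. With all 24 arrays 2 genes rose and 2 fell, 0.0281% of those tested by limma at an adjusted p under 0.05, and 1456 genes had an unadjusted p under 0.05. Card14, a scaffold of NF-κB signalling in epithelial cells, and Lpgat1, a membrane enzyme that remodels phospholipids, rose. Klf4, a zinc finger transcription factor of epithelium, endothelium and macrophages, and C11h21orf91 fell. Without rats 302 and 104, 2 genes rose and 1 fell, 0.0211% of those tested, with 905 at an unadjusted p under 0.05, and none of the 4 genes was among them. The heparan sulfate sulfotransferase gene Hs6st1 and the GTPase-activating protein gene Arhgap5 rose there, and Klf2, the flow-dependent factor of endothelium, fell.

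Card14 stood at 8.40, 8.28, 8.65 and 8.53 in Iraqi sand rats, against 7.90, 7.72, 7.54 and 7.64 in air rats. Every sand rat was above every air rat, and the difference was 0.77 ± 0.12 (SE, n = 4 rats each; limma adjusted p = 0.0243), or 0.77 ± 0.13 without rats 302 and 104 (limma adjusted p = 0.056). Lpgat1 was at 8.30, 8.27, 8.41 and 8.30 in Iraqi sand rats and at 7.68, 7.87, 7.50 and 7.83 in air rats. Its groups did not overlap either, the sand rats lay within a narrow band, and the difference was 0.60 ± 0.10 (limma adjusted p = 0.0243), or 0.54 ± 0.10 without the 2 rats (limma adjusted p = 0.105). A dimmer probe set of Lpgat1 gave -0.02 ± 0.09, so its rise rests on 1 of 2 probe sets, and their mean gave 0.29 ± 0.07 (limma adjusted p = 0.181).

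C11h21orf91 had 8.70, 7.67, 8.52 and 7.86 in Iraqi sand rats, against 9.11, 9.38, 9.56 and 9.0 in air rats. The sand rats were all lower and spread more widely than the air rats, with a difference of -1.08 ± 0.18 (limma adjusted p = 0.0297), or -0.80 ± 0.17 without rats 302 and 104 (limma adjusted p = 0.184). Its second probe set gave -0.52 ± 0.12. For Klf4 the values were 11.19, 10.87, 11.02 and 11.16 in Iraqi sand rats and 11.69, 11.74, 11.66 and 11.55 in air rats. The highest sand rat was below the lowest air rat, and the difference was -0.60 ± 0.10 (limma adjusted p = 0.0381), or -0.54 ± 0.12 without the 2 rats (limma adjusted p = 0.184).

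Klf2 was at 11.88, 12.36, 11.42 and 11.37 in Iraqi sand rats, against 12.70, 12.53, 12.89 and 12.55 in air rats. All sand rats were lower, rat 302 least so, and the difference was -0.91 ± 0.18 with all arrays (limma adjusted p = 0.069) and -1.04 ± 0.16 without rats 302 and 104 (limma adjusted p = 0.0321). Of the other 4 probe sets of Klf2, the next brightest gave -1.04 ± 0.21, and the dimmest, near background, gave 0.02 ± 0.09. The 2 in between gave -0.35 ± 0.12 and -0.19 ± 0.10. With 22 arrays these 4, from bright to dim, gave -1.23 ± 0.20, -0.50 ± 0.11, -0.25 ± 0.10 and -0.04 ± 0.10. With its probe sets averaged Klf2 stood at -0.49 ± 0.12 with all arrays (limma adjusted p = 0.116). No gene fell past the threshold with 22 arrays in that setting, so the call of Klf2 was lost on averaging. Hs6st1 had 9.59, 8.87, 9.49 and 9.61 in Iraqi sand rats and 8.21, 8.04, 8.95 and 8.40 in air rats. Only rats 302 and 104 overlapped, so that the difference was 0.99 ± 0.22 with them (limma adjusted p = 0.102) and 1.35 ± 0.22 without them (limma adjusted p = 0.0321). Arhgap5 was at 7.38, 5.95, 7.31 and 7.44 in Iraqi sand rats and at 6.62, 6.79, 6.13 and 6.74 in air rats. Rats 302 and 104 were the lowest of their groups there, and the difference was 0.45 ± 0.23 with them (limma adjusted p = 0.5) and 0.66 ± 0.11 without them (limma adjusted p = 0.0321).

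**Figure D2:**
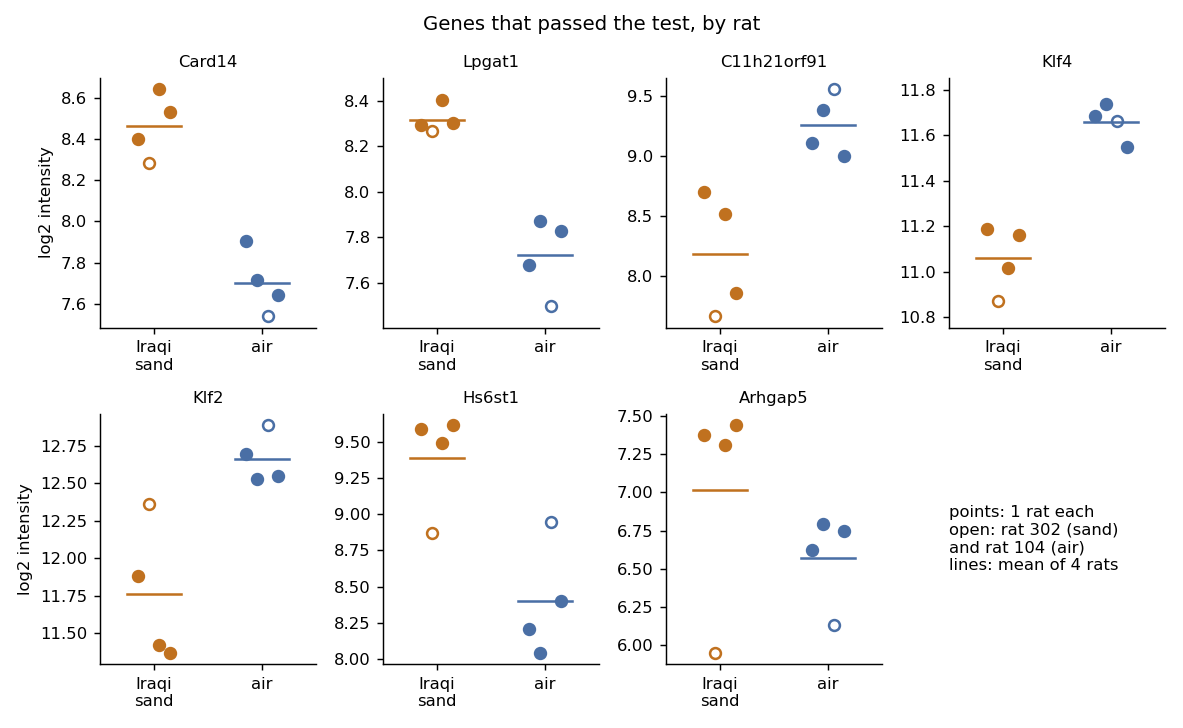
Log2 intensity of the 7 genes that passed the test with 24 or with 22 arrays, in each of 4 Iraqi sand and 4 air rats, with open points for rats 302 and 104 and lines for the mean of 4 rats. The groups are apart in all rats for Card14, Lpgat1, C11h21orf91, Klf4 and Klf2, and rats 302 and 104 fall between or below the rest for Hs6st1 and Arhgap5.

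These calls were close to the threshold. With 1 rat left out, 0 genes passed when it was rat 104 or 304, 1 when it was rat 102 or 103, 2 when it was rat 305, 3 when it was rat 105, 4 when it was rat 302 and 30 when it was rat 301. The genes also differed, since none of the 4 reported genes was among the 2 without rat 305, 2 were among the 3 without rat 105 and 2 among the 4 without rat 302, while all 4 were among the 30 without rat 301. From the 22 arrays, 1 gene passed when rat 301 was dropped and 0 when any other of the 6 rats was. Array quality weights gave 201 genes, 141 that rose and 60 that fell, with all 4 genes among them, while the 8 arrays of these groups alone gave 0. On the 19 arrays with a known RNA integrity number 0 genes passed, both with that number in the model and without it.

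Promoters of the genes past the test are shown for the 3 of the 24-array calls that the RefSeq table holds, from 250 bases before to 50 after the start of the gene in assembly GRCr8, to let their base composition be seen. They are Lpgat1 (chr13:105826575-105826874, plus strand), C11h21orf91 (chr11:30749073-30749372, minus strand) and Klf4 (chr5:75078543-75078842, minus strand). Capitals mark, on either strand, the CCAAT box, the GC box (GGGCGG) and the TATA box (TATAAA), short elements that 37.5%, 33.1% and 14.2% of the 33469 listed promoters hold.
Lpgat1: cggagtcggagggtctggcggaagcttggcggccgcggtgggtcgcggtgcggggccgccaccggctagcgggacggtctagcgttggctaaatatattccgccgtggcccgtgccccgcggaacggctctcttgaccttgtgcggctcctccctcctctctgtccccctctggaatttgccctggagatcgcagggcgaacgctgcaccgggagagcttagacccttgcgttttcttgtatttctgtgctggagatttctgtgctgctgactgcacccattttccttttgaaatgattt
C11h21orf91: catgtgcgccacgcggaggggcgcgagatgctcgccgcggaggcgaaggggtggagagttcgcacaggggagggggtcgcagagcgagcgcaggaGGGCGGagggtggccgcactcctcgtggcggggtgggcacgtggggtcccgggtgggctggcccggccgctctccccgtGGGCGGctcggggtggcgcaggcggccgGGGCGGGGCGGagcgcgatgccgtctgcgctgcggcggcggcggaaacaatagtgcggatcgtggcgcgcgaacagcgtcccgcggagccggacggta
Klf4: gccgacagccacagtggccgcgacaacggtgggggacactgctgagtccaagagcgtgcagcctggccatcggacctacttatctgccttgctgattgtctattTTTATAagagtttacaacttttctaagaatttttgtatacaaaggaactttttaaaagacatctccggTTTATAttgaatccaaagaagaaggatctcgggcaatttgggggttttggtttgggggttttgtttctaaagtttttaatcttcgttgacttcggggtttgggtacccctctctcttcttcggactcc
Lpgat1 has none of the 3 elements in this window, C11h21orf91 has 4 copies of GGGCGG, of which 2 overlap, and Klf4 has 2 copies of TATAAA on the opposite strand.

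Below the threshold, more genes lay higher than lower. All 4 Iraqi sand rats were above all 4 air rats for 484 genes, 3.4% of those tested, and below them for 132, or 0.928%. Without rats 302 and 104, with 3 rats a group, the shares were 9.71% and 5.68%. The median difference over all genes was 0.04 with 24 arrays and 0.01 with 22. Napsa, Sfta2, Grhpr, Them5 and Bnc1 were among the genes next in line. Napsa, the aspartic protease that trims surfactant proteins, was at 12.80, 12.99, 12.95 and 12.89 in Iraqi sand rats and at 12.38, 12.64, 12.44 and 12.62 in air rats, without overlap (0.38 ± 0.07; limma adjusted p = 0.0545). Sfta2, a secreted surfactant-associated protein, gave 0.59 ± 0.11 (limma adjusted p = 0.069), also without overlap. The glyoxylate reductase Grhpr stood at 0.47 ± 0.09 (limma adjusted p = 0.0545), the mitochondrial thioesterase Them5 at 0.90 ± 0.17 (limma adjusted p = 0.0621), and the zinc finger protein Bnc1 of mesothelium at 0.82 ± 0.17 (limma adjusted p = 0.0745). On the lower side, the D-type cyclin Ccnd2 stood at -0.83 ± 0.19, the protein kinase C gene Prkce at -0.62 ± 0.14, the matrix protein Dpt at -0.35 ± 0.08 and the translation-linked Tma7 at -0.28 ± 0.06, each at a limma adjusted p between 0.102 and 0.105 and without overlap. The ERK phosphatase Dusp6 was at 9.82, 10.04, 10.74 and 11.40 in Iraqi sand rats, against 11.88, 11.79, 11.76 and 11.32 in air rats. Rat 305 reached into the air range, and the difference was -1.19 ± 0.27 (limma adjusted p = 0.102). The other probe sets of Dusp6, one nearly as bright, gave 0.04 ± 0.37 and -0.40 ± 0.20, so its lower level rests on 1 of 3.

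In the gene lists 581 of 681 entries were measured, and the only members to pass were Klf4 with 24 arrays and Klf2 with 22. Lists are described here by their counts and medians, beside the 3.4% and 0.928% of all genes without overlap, and the 59.9% of all genes with a difference above 0, or 53.7% with 22 arrays. Counts without rats 302 and 104 stand beside larger shares, 9.71% of all genes above and 5.68% below. With 24 arrays the list with the highest median of the 33 was that of mesothelium, the cell layer that covers the lung, at 0.31. With 22 arrays it was at 0.24, and the highest was that of alveolar macrophage markers at 0.28, against 0.16 with 24 arrays. In the mesothelium list 11 of the 12 measured members, Bnc1 among them, were above 0. Its mean was 9.32, 9.32, 9.33 and 9.31 in Iraqi sand rats, against 8.82, 9.06, 8.66 and 9.28 in air rats, without overlap, and 1 member was apart. The part of these cells in the other results was not tested. Some genes named below fell outside the naming rule given at the end and were chosen after their values were seen. They are Fdps, Mvd, Msmo1, Fasn, Ctsl, Ctsz, Lyz2, Txnrd1, Abca3, C1qa, C1qb, C1qc, Klf6, Gss, Cped1, Rab27b and Matn2.

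**Figure D3:**
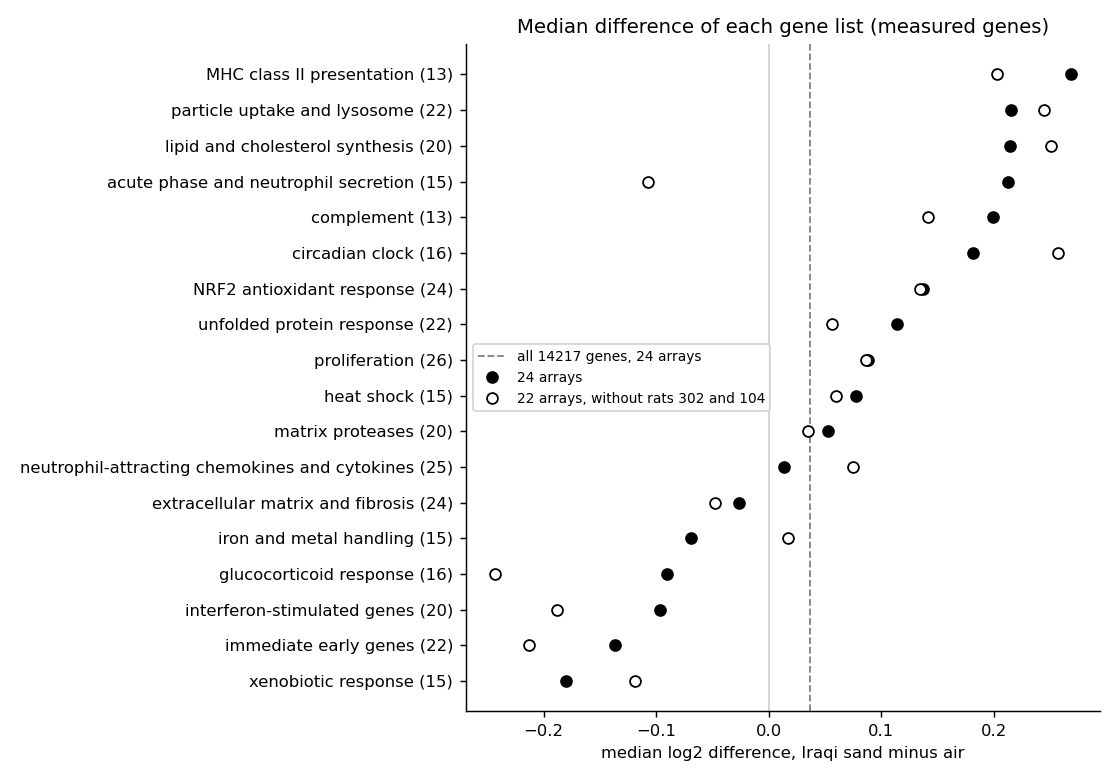
Median log2 difference, Iraqi sand minus air, of 18 gene lists with the number of measured genes in brackets, filled for 24 arrays and open for 22, and dashed for all genes at 0.04. The lists for MHC class II, lysosome, lipid synthesis and complement lie between 0.20 and 0.27 with 24 arrays, and that for acute phase genes stands at 0.21 with 24 arrays and at -0.11 with 22.

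Genes of particle uptake and the lysosome lay higher, though none passed. Of 22 members 8 had all Iraqi sand rats above all air rats and 1, the cathepsin gene Ctsl, had them below, with a median of 0.22. Without rats 302 and 104 the median was 0.24, and 14 were above and 1 below, beside 9.71% and 5.68% of all genes. Lgals3, a galectin of activated macrophages, was at 12.89, 13.11, 13.26 and 13.18 in Iraqi sand rats and at 12.74, 12.52, 12.69 and 12.59 in air rats. The groups did not overlap, and the difference was 0.48 ± 0.10 (limma adjusted p = 0.0824). Ctsd, the lysosomal aspartic protease, was at 12.59, 12.88, 13.05 and 12.99 in Iraqi sand rats, against 12.25, 12.49, 12.46 and 12.45 in air rats. These too were apart, at 0.47 ± 0.10 (limma adjusted p = 0.102), as was the cholesterol carrier of lysosomes Npc2, at 0.37 ± 0.08 (limma adjusted p = 0.0824). The macrophage membrane protein Cd68 stood at 0.46 ± 0.19, the cathepsin Ctsz at 0.47 ± 0.14 and the glycoprotein Gpnmb at 0.47 ± 0.19 (limma adjusted p = 0.426, 0.302 and 0.426), of which Gpnmb overlapped. The mean of the alveolar macrophage marker list was between 9.49 and 9.69 in Iraqi sand rats and between 9.29 and 9.60 in air rats, and 2 of its 10 members, Cd68 and Lyz2, did not overlap.

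Antioxidant genes of the NRF2 list had 6 of 24 members with every Iraqi sand rat above every air rat and none below, at a median of 0.14, or 0.13 without rats 302 and 104. List means were 9.93, 10.05, 10.02 and 10.02 in Iraqi sand rats and 9.85, 9.81, 9.87 and 9.84 in air rats, so the groups were apart by a small margin. Hmox1, which breaks down haem, was at 8.78, 9.44, 9.05 and 10.09 in Iraqi sand rats, against 8.19, 8.55, 8.33 and 8.32 in air rats. Rat 305 was the highest and the groups did not overlap, with a difference of 0.99 ± 0.23 (limma adjusted p = 0.105). The mitochondrial superoxide dismutase Sod2 stood at 0.46 ± 0.17 and the thioredoxin reductase Txnrd1 at 0.19 ± 0.09 (limma adjusted p = 0.389 and 0.497). The quinone reductase Nqo1, a standard NRF2 target, was at 10.94, 11.46, 11.18 and 10.98 in Iraqi sand rats and at 10.93, 10.98, 10.97 and 11.11 in air rats, which overlapped (0.14 ± 0.25, or 0.03 ± 0.29 with 22 arrays; limma adjusted p = 0.827 and 0.997). Cyp1a1, the target of the aryl hydrocarbon receptor, overlapped as well, at -0.18 ± 0.32, or -0.48 ± 0.36 with 22 arrays (limma adjusted p = 0.835 and 0.905).

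Among genes of lipid and cholesterol synthesis 19 of 20 differences were above 0, and 7 members had all Iraqi sand rats above all air rats, with none below. The median was 0.21, or 0.25 without rats 302 and 104. List means were 9.22, 9.23, 9.28 and 9.09 in Iraqi sand rats, against 8.92, 8.92, 9.0 and 9.07 in air rats, so that rat 305 came close to rat 105. The squalene synthase gene Fdft1 was at 9.40, 9.88, 9.71 and 9.55 in Iraqi sand rats and at 8.83, 9.08, 9.20 and 9.29 in air rats. Rat 302 was the highest, the groups were apart, and the difference was 0.53 ± 0.14 (limma adjusted p = 0.215). The prenyl synthase Fdps, the decarboxylase Mvd and the sterol oxidase Msmo1 followed at 0.40 ± 0.12, 0.40 ± 0.14 and 0.26 ± 0.13 (limma adjusted p = 0.287, 0.349 and 0.494), and the fatty acid synthase Fasn at 0.34 ± 0.11. Without rats 302 and 104 Mvd was at 0.26 ± 0.13 and Fasn at 0.20 ± 0.11. Insig1, which holds back the sterol-sensing factors, stood at 0.22 ± 0.09 with rat 302 the lowest sand rat, and at 0.34 without rats 302 and 104 (limma adjusted p = 0.439 and 0.306). Stard4, which the naming rule also gave, stood at 0.16 ± 0.09, or 0.26 ± 0.09 with 22 arrays. Its dimmer probe sets gave 0.01 ± 0.09 and -0.003 ± 0.10 with 24 arrays.

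Promoters of 3 members without overlap are printed, since sterol genes are known to pair sterol-response elements with CCAAT boxes. They are Fdps (chr2:176804767-176805066, minus strand), Mvd (chr19:67414925-67415224, minus strand) and Msmo1 (chr16:29746863-29747162, plus strand), from the same RefSeq table and with the same 3 elements in capitals.
Fdps: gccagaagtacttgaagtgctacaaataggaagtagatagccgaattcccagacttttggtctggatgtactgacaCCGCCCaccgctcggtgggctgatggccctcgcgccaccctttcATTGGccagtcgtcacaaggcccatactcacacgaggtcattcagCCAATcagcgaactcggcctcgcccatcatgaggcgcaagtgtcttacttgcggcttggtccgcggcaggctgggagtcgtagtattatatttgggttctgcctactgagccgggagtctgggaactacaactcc
Mvd: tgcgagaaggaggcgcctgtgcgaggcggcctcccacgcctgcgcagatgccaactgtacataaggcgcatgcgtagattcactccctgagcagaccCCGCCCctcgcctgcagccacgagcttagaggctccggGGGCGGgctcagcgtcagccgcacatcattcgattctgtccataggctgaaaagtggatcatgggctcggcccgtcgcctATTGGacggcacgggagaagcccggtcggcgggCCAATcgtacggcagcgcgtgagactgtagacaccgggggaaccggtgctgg
Msmo1: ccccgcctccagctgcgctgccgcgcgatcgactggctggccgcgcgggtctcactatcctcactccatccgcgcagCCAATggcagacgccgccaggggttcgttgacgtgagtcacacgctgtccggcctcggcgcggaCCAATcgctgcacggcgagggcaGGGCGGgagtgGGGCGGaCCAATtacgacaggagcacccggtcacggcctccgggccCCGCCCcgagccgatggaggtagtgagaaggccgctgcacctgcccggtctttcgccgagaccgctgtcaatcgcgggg
All 3 hold CCAAT on 1 strand or the other, in 2, 2 and 3 copies. Among the 13 list members with a single promoter there, 9 hold CCAAT and 10 the GC box, beside the 37.5% and 33.1% of all promoters. A match is a stretch of letters and was not tested as a binding site.

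**Figure D4:**
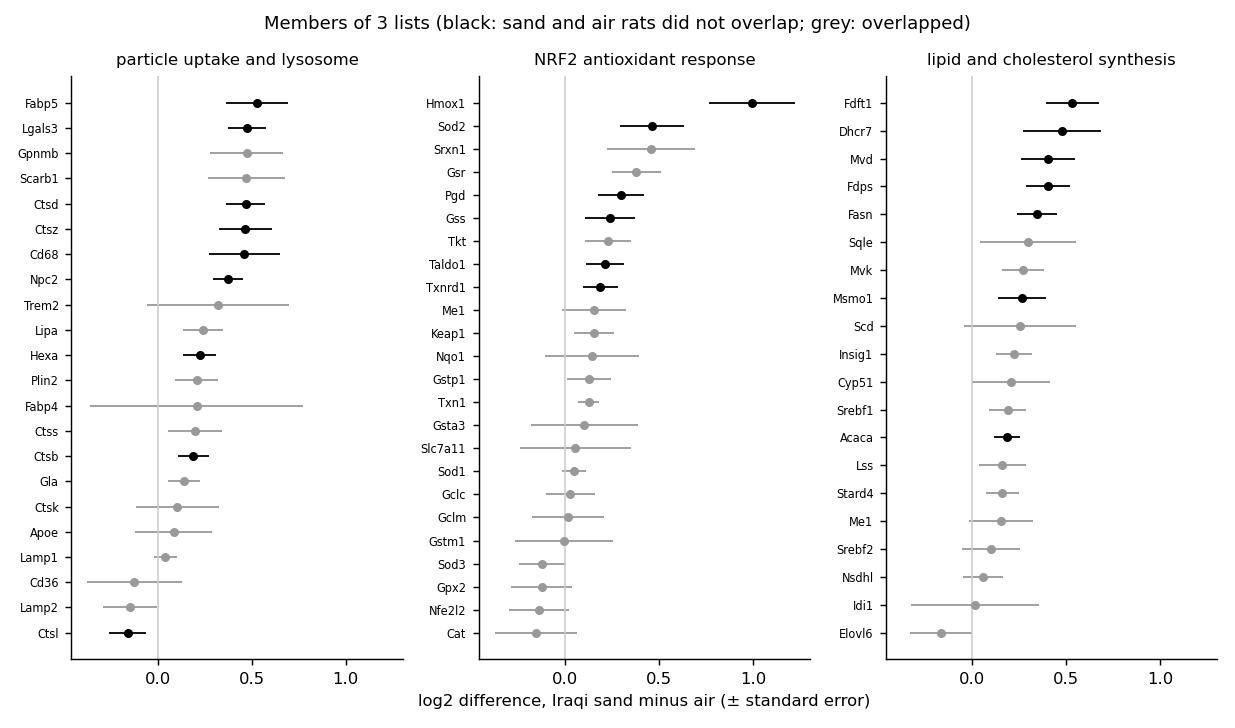
Log2 difference, Iraqi sand minus air, with its standard error for each measured member of 3 lists, black where the 4 sand rats and the 4 air rats did not overlap and grey where they did. Most points lie right of 0, at up to 0.99 for Hmox1.

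Markers of alveolar type 2 cells had 6 of 17 members with every Iraqi sand rat above every air rat, at a median of 0.17, or 0.12 without rats 302 and 104. Besides Napsa these included the membrane mucin Muc1, at 12.01, 12.27, 12.21 and 12.00 in Iraqi sand rats and 11.76, 11.74, 11.58 and 11.86 in air rats. It was apart at 0.38 ± 0.09 (limma adjusted p = 0.102). The surfactant lipid pump Abca3 stood at 0.25 ± 0.07 (limma adjusted p = 0.31). Sftpc was at 0.05 ± 0.04, near the top of the scale, and the collectin Sftpd was at 0.18 ± 0.11, overlapping (limma adjusted p = 0.629 and 0.554), and at -0.0020 ± 0.10 with 22 arrays. The mean of the list was between 12.42 and 12.83 in Iraqi sand rats and between 12.31 and 12.60 in air rats, and rats 302 and 104 were the lowest of their groups.

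Complement genes had 4 of 13 members apart, C3 and the 3 chains of C1q, with a median of 0.20, or 0.14 without rats 302 and 104. C3, the central component, was at 12.05, 12.59, 12.50 and 12.60 in Iraqi sand rats, against 11.70, 10.89, 11.51 and 11.73 in air rats. The lowest sand rat was above the highest air rat, and the difference was 0.98 ± 0.20 (limma adjusted p = 0.0824). C1qa, C1qb and C1qc, which macrophages make, stood at 0.55 ± 0.20, 0.62 ± 0.20 and 0.51 ± 0.19 (limma adjusted p = 0.374, 0.32 and 0.392), and rat 302 was the highest in each. The complement inhibitor C4bpa stood at 0.82 ± 0.20 with overlap (limma adjusted p = 0.153).

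Of 25 chemokine and cytokine genes 3 were higher without overlap, and the median was 0.01, or 0.07 without rats 302 and 104. Csf2, the growth factor that alveolar macrophages depend on, was at 7.86, 8.19, 8.20 and 7.83 in Iraqi sand rats and at 7.65, 7.55, 7.34 and 7.49 in air rats (0.51 ± 0.12; limma adjusted p = 0.102). A dimmer probe set of Csf2 gave 0.04 ± 0.10, so this too rests on 1 of 2. The monocyte attractant Ccl2 was at 7.32, 7.94, 7.74 and 8.94 in Iraqi sand rats, against 5.92, 6.89, 7.11 and 7.05 in air rats. The spread among sand rats was wide, rat 305 was the highest, and the difference was 1.24 ± 0.60 (limma adjusted p = 0.489). Ccl3, another attractant of phagocytes, stood at 0.50 ± 0.16 (limma adjusted p = 0.32). The neutrophil attractants Cxcl1 and Cxcl2 overlapped at 0.64 ± 0.26 and 0.58 ± 0.26 (limma adjusted p = 0.429 and 0.459), and Il1b was at -0.24 ± 0.36. Neutrophil markers did not lie higher as a list, with a mean between 7.23 and 7.50 in Iraqi sand rats and between 6.95 and 7.57 in air rats. The chemokine receptor Cxcr1 stood at 0.68 ± 0.22 without overlap (limma adjusted p = 0.328), and the calprotectin subunit S100a9 at -0.55 ± 0.41 (limma adjusted p = 0.603). The siderophore-binding protein Lcn2 was at 11.53, 12.61, 12.39 and 8.41 in Iraqi sand rats and at 11.22, 11.48, 6.20 and 10.27 in air rats. Its rats ranged so widely, rat 104 lowest, that the difference was 1.44 ± 1.20 with all arrays and -0.21 ± 1.19 without rats 302 and 104.

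The largest difference among the genes described was that of Retnla, a secreted protein of alternatively activated macrophages and airway cells in rodents. It was at 12.01, 13.05, 12.82 and 12.84 in Iraqi sand rats, against 9.58, 9.93, 9.37 and 11.17 in air rats. The lowest sand rat lay above rat 105, the highest air rat, but the spread over all groups was large, so that a difference of 2.67 ± 0.61 did not pass (limma adjusted p = 0.102, or 0.45 without rats 302 and 104). MHC class II genes were above 0 in 13 of 13 members with a median of 0.27, or 0.20 in the smaller fit, and 3 were apart, among them the peptide-loading chain RT1-DMa at 0.40 ± 0.13 (limma adjusted p = 0.32). The list mean was 10.04, 10.24, 10.17 and 10.08 in Iraqi sand rats, against 9.46, 10.02, 10.07 and 9.86 in air rats. These means overlapped, with rat 104 above rat 301, and rat 102 was the lowest. Matrix proteases had 3 of 20 apart on the higher side and 1 on the lower. Macrophage elastase, Mmp12, was at 6.90, 7.94, 7.18 and 8.32 in Iraqi sand rats and at 6.79, 6.40, 6.85 and 6.53 in air rats (0.94 ± 0.48; limma adjusted p = 0.5). Rats 302 and 305 were high, and rats 301 and 304 were close to the air rats. The stromelysin-like Mmp11 stood at 0.45 ± 0.12 and the urokinase receptor Plaur at 0.49 ± 0.17 (limma adjusted p = 0.208 and 0.348), but Plaur at 0.30 ± 0.19 without rats 302 and 104. None of 24 matrix and fibrosis genes was higher without overlap and 1 was lower, beside 3.4% and 0.928% of all genes. At such shares a list of 24 may well hold none. Col1a1 was at 0.00 ± 0.40, and the matrix protein Spp1 was at -0.13 ± 0.86. The proliferation marker Mki67 stood at -0.04 ± 0.40. With 22 arrays these 3 were at 0.07 ± 0.44, -0.48 ± 1.02 and 0.20 ± 0.46.

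Immediate early genes lay lower on balance, with 3 of 22 members below without overlap, 1 above and a median of -0.14, or -0.21 without rats 302 and 104. Those below were Klf4, Klf2 and their relative Klf6, at 11.44, 10.99, 11.41 and 11.20 in Iraqi sand rats and 11.63, 11.64, 11.64 and 11.64 in air rats (-0.38 ± 0.11; limma adjusted p = 0.31). The air rats agreed closely and rat 302 was the lowest. Dimmer probe sets of Klf6 gave -0.45 ± 0.20 and -0.52 ± 0.35 with all arrays. Without rats 302 and 104 they gave -0.13 ± 0.07 and -0.07 ± 0.10, and the brightest gave -0.29 ± 0.12. Egr2, a zinc finger factor also used by alveolar macrophages, was the one above, at 0.57 ± 0.16 (limma adjusted p = 0.244). Klf2 and Klf4 were also the 2 of 19 endothelial markers without overlap, both lower. The endothelial list mean was 11.30, 11.25, 11.04 and 11.13 in Iraqi sand rats, against 11.35, 11.42, 11.50 and 11.25 in air rats, and its median difference was -0.14, or -0.16 in the smaller fit. Whether the endothelial share of the lobe bears on Klf2 and Klf4 was not tested. Glucocorticoid response genes were at a median of -0.09, or -0.24 without rats 302 and 104. With 3 rats a group 7 of 16 were lower without overlap, beside 5.68% of all genes. Among them, with 22 arrays, were Cebpd at -0.66 ± 0.22 and the NF-κB inhibitor Nfkbia at -0.47 ± 0.14 (limma adjusted p = 0.504 and 0.437). With all arrays Cebpd was at -0.36 ± 0.22 and Nfkbia at -0.31 ± 0.14, none of the 16 was apart, and rat 302 held the highest sand value of both genes.

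Clock genes had 1 of 16 members apart, Bhlhe40, a repressor that also responds to cell stress. It was at 8.03, 8.23, 8.48 and 7.45 in Iraqi sand rats and at 7.23, 7.23, 7.21 and 7.39 in air rats, 0.78 ± 0.20 (limma adjusted p = 0.162). Rat 305 was barely above rat 105. Its relative Bhlhe41 was at 0.41 ± 0.15, the output factor Dbp at 0.67 ± 0.32, Per2 at 0.32 ± 0.22 (0.53 ± 0.22 with 22 arrays) and Nr1d1 at 0.36 ± 0.22, all overlapping, with limma adjusted p between 0.392 and 0.579. A dimmer probe set of Per2 gave 0.02 ± 0.07, or -0.03 ± 0.07 with 22 arrays, so its higher value rests on the brighter one. Time of day at sampling was not in the labels used here. Of 20 interferon-stimulated genes 2 were lower without overlap, and 0 of 24 T and NK cell markers were, with medians of -0.10 and -0.15, or -0.19 and -0.26 without rats 302 and 104. Xbp1, the factor of the unfolded protein response, stood at 0.22 ± 0.06 without overlap (limma adjusted p = 0.289). Levels of Mt1a, Marco and Arntl are not given, since no probe set with their single symbol was found.

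The same particle was also given to rats that inhaled smoke, which allows the Iraqi sand difference to be compared with and without smoke. Smoke rats 201, 203, 204 and 205 had Myl7 at 5.62, 9.15, 9.33 and 5.26 and Bpifa1 at 6.89, 11.73, 11.67 and 7.07. In smoke and Iraqi sand rats 402, 404, 405 and 406 Myl7 was at 4.80, 7.98, 5.89 and 4.74 and Bpifa1 at 7.06, 10.01, 12.13 and 9.26. These rats were left out only 1 at a time, and the bearing of such tissue on the smoke comparison was not tested. Under smoke 2 of 14217 genes passed, 0.0141%, and both rose, while 2 rose and 5 fell without rats 302 and 104, which belong to neither of those groups but enter the shared spread. The count under smoke was 0 when any one of rats 201, 203, 204, 205, 402, 404 or 406 was left out, and 7 without rat 405. For the difference between the 2 responses only Cped1, of 14217 genes, passed, or 0.00703%, with 1257 at an unadjusted p under 0.05 in limma. Cped1 and the secretory GTPase gene Rab27b, the pair that rose under smoke, were chosen after their values were seen. Cped1 was at 7.96, 7.42, 8.0 and 7.81 in Iraqi sand rats and at 8.36, 8.30, 8.11 and 8.08 in air rats, lower in each at -0.42 ± 0.13 (limma adjusted p = 0.32). Under smoke its difference was 0.79 ± 0.13 (limma adjusted p = 0.038), which made a contrast of 1.21 ± 0.18 between the responses (limma adjusted p = 0.0251), or 1.11 ± 0.17 without rats 302 and 104 (limma adjusted p = 0.0533). The contrast of the responses passed without rat 104, 105, 301, 302, 304, 201, 405 or 406, and not without rat 102, 103, 305, 203, 204, 205, 402 or 404.

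None of the 7 genes that passed under Iraqi sand alone did so under smoke. They were picked by their difference from air, which by itself makes a smaller difference in other rats likely. There Card14 stood at -0.12 ± 0.12, Lpgat1 at 0.04 ± 0.10, C11h21orf91 at 0.22 ± 0.18 and Klf4 at -0.25 ± 0.10. The smoke rats, the reference there, were already away from the air rats in some of these genes. Means in air, Iraqi sand and smoke rats were 7.70, 8.47 and 8.93 for Card14 and 7.72, 8.32 and 8.19 for Lpgat1. For Klf4 they were 11.66, 11.06 and 11.19. For C11h21orf91 they were 9.26, 8.19 and 9.22, so smoke rats were near air rats. The bearing of this baseline was not tested. The test of the difference between the responses gave -0.89 ± 0.17 for Card14 and 1.30 ± 0.26 for C11h21orf91, both at a limma adjusted p of 0.128, so neither was shown to differ. Lgals3 stood at -0.23 ± 0.10 and C3 at -0.09 ± 0.20 under smoke, and the contrasts of -0.71 ± 0.14 and -1.07 ± 0.28 did not pass (limma adjusted p = 0.128 and 0.358). Smoke rats had means of 13.56 for Lgals3 and 12.89 for C3, above the Iraqi sand means of 13.11 and 12.43. Retnla was at -0.45 ± 0.61 under smoke, with a contrast of -3.12 ± 0.86 (limma adjusted p = 0.358). Prkce stood at -0.58 ± 0.14 under smoke and at -0.62 ± 0.14 under air, neither of which passed (limma adjusted p = 0.326 and 0.102), and the contrast was 0.04 ± 0.19 (limma adjusted p = 0.945). List medians under smoke were -0.08 for lysosome genes, -0.14 for NRF2 genes and -0.05 for lipid synthesis.

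**Figure D5:**
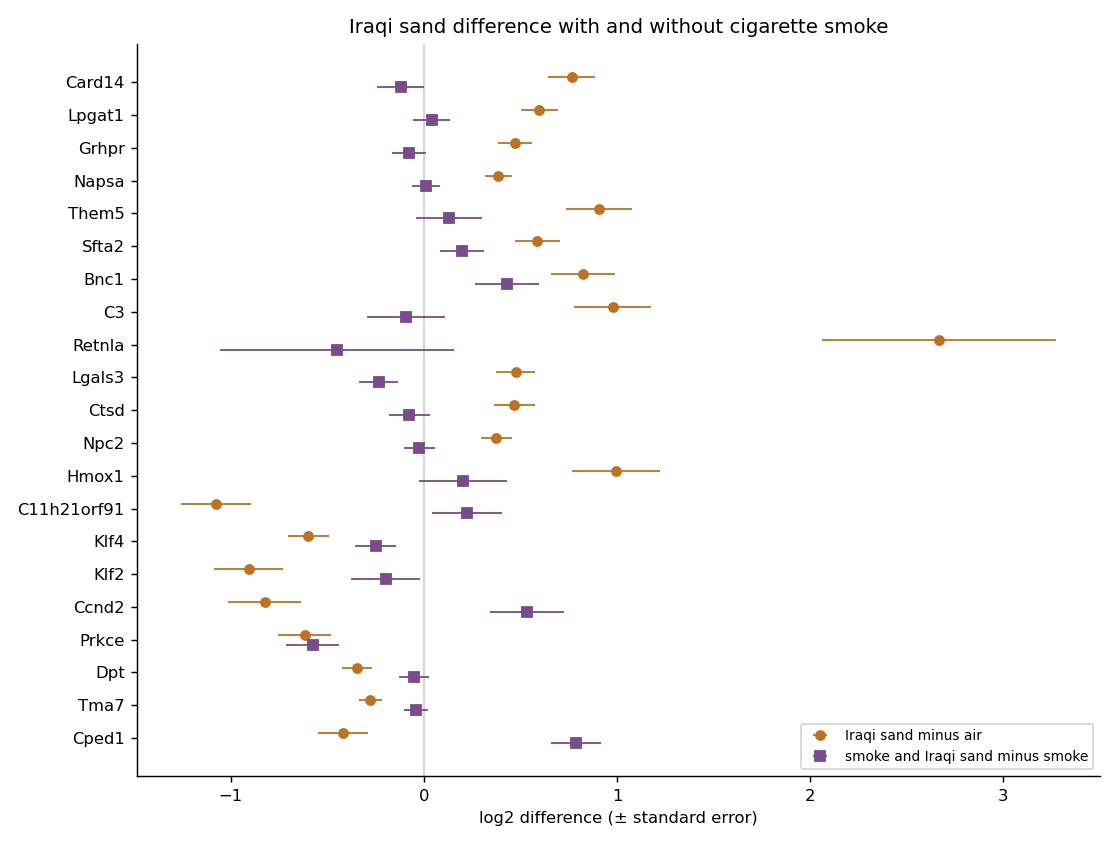
Log2 difference with its standard error for 21 genes, Iraqi sand minus air (circles) and smoke and Iraqi sand minus smoke (squares), 4 rats a group. Most squares lie near 0, and the contrast of the 2 differences passed the test only for Cped1. Most of these genes were picked by their difference between Iraqi sand and air. That choice by itself makes larger circles than squares likely.

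Against silica without smoke, 39 genes passed, 0.274%, of which 1 was higher and 38 were lower in Iraqi sand rats than in silica rats, and 30 of them were among the 40 that passed without rats 302 and 104. Ccnd2 was at -2.06 ± 0.19 against silica (limma adjusted p = 6.13e-06), C11h21orf91 at -1.37 ± 0.18 (limma adjusted p = 8.41e-04) and Cped1 at -1.18 ± 0.13 (limma adjusted p = 7.61e-05), and each also passed with 22 arrays. Bhlhe40 at -0.95 ± 0.20 passed with 24 arrays and not with 22 (limma adjusted p = 0.0335 and 0.0566). Lower than in silica rats does not mean lower than in air rats, since Bhlhe40 was 0.78 above air under Iraqi sand and 1.73 ± 0.20 above it under silica. Silica against air, which shares both the silica and the air rats with these comparisons, gave 1.23 ± 0.19 for Ccnd2, 0.76 ± 0.13 for Cped1 and 0.30 ± 0.18 for C11h21orf91. The gene that was higher was Matn2, a matrix adaptor, at 0.47 ± 0.10 with 24 arrays (limma adjusted p = 0.0383, or 0.0751 with 22), chosen after its values were seen. Hs6st1 was at 0.84 ± 0.22 against silica with 24 arrays and at 1.02 ± 0.20 with 22, where it passed (limma adjusted p = 0.17 and 0.0286). For the other called genes the differences from silica did not pass, at 0.09 ± 0.12 for Card14 (0.15 ± 0.13 with 22 arrays), 0.17 ± 0.10 for Lpgat1, -0.19 ± 0.10 for Klf4, -0.20 ± 0.18 for Klf2 (-0.40 with 22 arrays) and -0.17 ± 0.23 for Arhgap5 (0.18 ± 0.10 with 22 arrays). Card14 passed under silica against air at 0.68 ± 0.12 (limma adjusted p = 0.0161, or 0.0522 with 22 arrays). C3, C4bpa, Csf2, Ccl3, Cxcl1, Egr2 and Npc2, which did not pass under Iraqi sand, passed under silica against air with 24 arrays.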

How the data were processed

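Lung RNA was hybridised to 1 Rat230_2 array per rat, and groups were taken from the sample titles. The deposited log2 values were made by the authors with RMA, as the submitters' processing notes name it; the version is not given in the sources used here. RMA draws arrays toward 1 distribution of values (the largest gap between arrays at any percentile was 0.13), so most of a shift shared by most genes would be lost, and differences of dim probe sets are compressed. Of 31099 probe sets 57 controls were left out, 20826 had 1 gene symbol, 436 several and 9780 none. The Entrez numbers of 20758 probe sets matched RefSeq, and promoters come from its GRCr8 assembly.

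A model with 6 group means was fitted with limma 3.58.1 in R 4.3.3 to 24 arrays (18 residual degrees of freedom), or 22 without rats 302 and 104 (16), with no filter on dim genes. The two-sided p-values were adjusted by Benjamini-Hochberg over 14217 genes, at a threshold of 0.05, and errors beside differences are standard errors. The rats are separate animals. Each p-value sets a group difference against the spread among animals within groups, pooled over the 6 groups and moderated across genes.

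Named genes were, for each fit, the 10 largest rises and falls past the threshold or, where fewer passed, the 10 smallest p in that direction, up to 3 members of each of 33 lists by moderated t, and a panel of common markers. Not every gene that this rule gave is described. Genes said above to be chosen after their values were seen lie outside it. The members, lists and rule were chosen with earlier results of these data known. Alternatives were array quality weights, a trended and robust eBayes, only genes as bright as the median gene or brighter, averaging a gene's probe sets, fitting the compared groups alone, median centring, a second quantile normalization, a change of at least 1.5-fold, the RNA integrity number as a covariate, and each rat left out in turn. Fitting the arrays with a known RNA integrity number without that covariate was added after seeing the data.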

Additional observations from a re-analysis of the deposited data

Results flagged for a closer look

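In 230 groups of 4 values, the highest or lowest rat lay far from the other 3 in 22, at a cut that about 1 in 20 unselected normal groups would pass. That rate does not apply here, since the genes and lists were chosen with earlier results of these data known and share members. Rat 302 accounts for 10 of these and rat 104 for 7.

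Among the Iraqi sand rats, rat 302 was far above its mates in Myl7 at 11.51 (others 4.56 to 5.68), in the means of the heart muscle list at 8.82 (others 6.14 to 6.31) and of the B and plasma cell list at 8.74 (others 7.77 to 7.89), and in Bpifa1 at 12.63 (others 6.76 to 7.05). It was also above them in the sterol gene Fdps at 11.28 (others 10.87 to 10.93), the glutathione synthetase Gss at 8.76 (others 8.13 to 8.19) and the clock gene Nr1d1 at 10.39 (others 9.99 to 10.05). In the same rat Arhgap5 at 5.95 (others 7.31 to 7.44), Hs6st1 at 8.87 (others 9.49 to 9.61) and Insig1 at 10.31 (others 10.71 to 10.78) were far below. Dbp was low in rat 301 at 9.65 (others 10.29 to 10.37), and Egr2 was high in rat 304 at 8.37 (others 7.88 to 7.92).

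Among the air rats, rat 104 was far above its mates in Bpifa1 at 11.77 (others 6.93 to 7.03) and in the list means of heart muscle at 8.75 (others 6.36 to 6.58), club and secretory cells at 9.82 (others 9.03 to 9.16), adipocytes at 7.73 (others 6.95 to 7.07) and proliferation at 7.21 (others 7.09 to 7.11). It was far below them in the acute phase list at 8.72 (others 9.20 to 9.28) and in Sftpd at 12.86 (others 13.27 to 13.33). Bhlhe40 at 7.39 (others 7.21 to 7.23) and Il1b at 9.65 (others 8.57 to 8.73) were high in rat 105, and Ctsd was low in rat 102 at 12.25 (others 12.45 to 12.49).

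The Iraqi sand response of Cped1 differed between smoke and air by 1.21 ± 0.18 on the log2 scale in the test of that difference (limma adjusted p = 0.0251).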

How the results depend on the processing

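No paired analysis was possible because the rat numbers are unique and link no rats across groups. The 4 genes that passed with 24 arrays numbered 201 with array quality weights and 0 with only the arrays compared, with the RNA integrity number on 19 arrays and on the same 19 arrays without it, and 0 to 30 with 1 rat left out. The 3 genes without rats 302 and 104 numbered 127, 1, 1 (on 18 arrays) and 0 to 1 by array weights, arrays compared, covariate and 1 rat left out. Under smoke, 2 genes numbered 7 without rats 302 and 104, 1 at or above the median level, 17 with array weights, 0 after quantile normalization over again and on 19 arrays with or without the covariate, and 0 to 7 with 1 rat left out. The 1 gene whose response differed numbered 0 without rats 302 and 104, with only the arrays compared and on 19 arrays with or without the covariate, 54 with array weights and 0 to 5 with 1 rat left out. Against silica, 39 genes numbered 19 at or above the median level, 6 with only the arrays compared, 82 with array weights, 2 with the covariate, 10 on the same 19 arrays, and 25 to 54 with 1 rat left out.

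Of 1455 values of named genes under alternatives, 1331 kept their direction and side of the threshold, 54 passed where the reported value did not, 40 no longer passed and 30 turned, all 30 of genes that did not pass and had overlapping groups. Without rats 302 and 104, Lcn2 was at -0.21, Sftpd at -0.0020, Col1a1 at 0.065, Mki67 at 0.20, Nppa at -0.058 and Bpifa1 at -0.098. With array weights Col1a1 was at 0.047, Mki67 at 0.15, Nppa at -0.050 and Bpifa1 at -0.36. On 19 arrays Col1a1 was at 0.031 and Myl7 at 0.21 with the covariate, and at 0.24 and 0.13 without it. With 1 rat left out, Cyp1a1 ranged from -0.42 to 0.0032, Bpifa1 from -1.30 to 1.34, Col1a1 from -0.18 to 0.25, Myl7 from -2.77 to 0.13, Il1b from -0.37 to 0.017, Spp1 from -0.44 to 0.21, Mki67 from -0.17 to 0.16 and Nppa from -0.049 to 0.18. The causes were not tested.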
